A study of Mus musculus with 2 samples.

Results

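Capillary endothelial cells of the mouse right ventricle were described from droplet barcodes chosen by their marker transcripts. A barcode was selected on unique molecular identifiers (UMIs), which count captured RNA molecules. It had at least 500 UMIs, of which less than 2% came from the cardiomyocyte genes Ttn and Ryr2 together. It had at least 3 UMIs of the pan-endothelial genes Flt1, Pecam1, Cdh5 and Ptprb and at least 1 UMI of the capillary genes Rgcc, Timp4, Car4, Ccdc85a and Mcf2l. It had at most 1 UMI of the endocardial genes Npr3, Smoc1 and Tmem108, and at most 1 of the lymphatic genes Prox1, Mmrn1 and Flt4. The rule found 1590 capillary barcodes among 22183, with 609 of 12736 in library 1 and 981 of 9447 in library 2.

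The study asked about p300/CBP and calcium handling in cardiomyocytes of the young right ventricle, and its deposited data are 2 droplet libraries of 1 group with no control sample. Both libraries came from right ventricles of C57/BL6J pups that carried CBP flox/flox and p300 flox/flox alleles together with Trap flox/flox, written trap in library 2. AAV9, an adeno-associated virus that reaches the heart, was given within 24 h of birth to knock out p300/CBP, and the pups were sampled at postnatal day 21. The cargo and promoter of the virus, the nature of the Trap allele and the number of animals per library are unstated in the labels. Tissue was frozen, digested with collagenase and enriched for CD45-positive cells, which bears on every share of cells below. With 2 libraries, the p-values below set differences between classes against a spread that is largely pooled over genes. They are no measure of how well a single gene repeats, and the spread between the libraries may be technical.

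Capillaries are the smallest blood vessels, and their endothelium is the surface across which heart muscle takes up oxygen, water, glucose and lipid. The working heart burns mainly fatty acids, and cardiac capillary cells are known for a programme that binds lipoprotein lipase and passes fatty acids to cardiomyocytes. They are also known to lie between arterial cells, which depend on Notch signalling, and venous cells, while the endocardium lines the chambers and the lymphatic endothelium drains fluid.

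Capillary barcodes held a median of 1765 UMIs and 1196 genes in library 1 and 2535 UMIs and 1509 genes in library 2, and 1347946 and 3034622 UMIs in all. They were 13.7% (95% exact binomial interval 12.7 to 14.7) and 14.4% (13.6 to 15.3) of the barcodes with low Ttn and Ryr2 in libraries 1 and 2, and 4.78% and 10.4% of all barcodes. All other barcodes with Ttn and Ryr2 below 2% of UMIs are called the remaining barcodes here. They numbered 3847 and 5812, with medians of 1570 and 3238 UMIs. For comparison with the nearest cell types, 1223 endocardial barcodes (140 and 1083) and 273 lymphatic endothelial barcodes (55 and 218) were selected with the same UMI, Ttn and Ryr2 and pan-endothelial thresholds, at least 2 UMIs of their own genes and at most 1 of the other class, with no limit on capillary genes. The remaining barcodes include both of these classes. The libraries shared 17 barcode sequences, of which 2 were in the capillary class in 1 library and 0 in both.

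The genes of the rule show what was selected and were not tested. Flt1, a VEGF receptor, had 1631 and 1874 CPM (UMIs scaled to 1000000 per class and library) in capillary barcodes of libraries 1 and 2, against 108 and 280 CPM in the remaining barcodes. Rgcc had 304 and 265 CPM in capillary barcodes, against 15.0 and 9.01 CPM in the remaining ones. Car4, a carbonic anhydrase anchored in the capillary membrane, had 225 and 128 CPM against 11.4 and 5.13 CPM. All of the 7 marker genes of the class were therefore high in both libraries, which the rule itself brings about. Capillary barcodes held a median of 7 and 12 pan-endothelial UMIs and 6 and 8 capillary UMIs in libraries 1 and 2, so most lay clear of the thresholds. Just inside the capillary threshold lay 153 barcodes with 1 capillary UMI, and just outside it 238 barcodes with 0. Cd36, a gene that the rule did not use, was at 1750 CPM inside the threshold and at 709 CPM outside it. Just inside the pan-endothelial threshold lay 103 barcodes with 3 UMIs, and just outside it 81 with 2, with Cd36 at 2930 CPM inside and 1890 CPM outside. Barcodes with 2 endocardial UMIs (40) or 2 lymphatic UMIs (40) that met all other limits belong to those classes. Their Cd36 was at 2020 and 2360 CPM, against 2970 and 3220 CPM in capillary barcodes with 1 such UMI.

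Transcripts of other cell types were present in the capillary class and are given as summed lists. The 12 cardiomyocyte markers summed to 19030 and 5326 CPM in capillary barcodes of libraries 1 and 2, against 22040 and 3926 CPM in the remaining barcodes. Their level thus differed more between libraries than between classes. They include Ttn and Ryr2, which the selection limits in both classes. The 5 erythroid markers were higher in capillary barcodes, at 3680 and 2425 CPM against 1960 and 722 CPM. Of these, Hbb-bs, a beta-globin gene, differed by 1.54 ± 0.24 on the log2 scale (SE, adjusted p = 0.000821). The 8 fibroblast markers (1854 and 2984 CPM against 6156 and 8883 CPM), the 8 macrophage markers (162 and 608 against 941 and 1159 CPM) and the 8 pericyte markers (680 and 600 against 1482 and 861 CPM) were lower in capillary barcodes, and none of their genes was at 0. The 4 hepatocyte markers summed to 206 and 0.330 CPM, against 820 and 0.354 CPM. Lymphocyte markers summed to 62.3 and 54.0 CPM in capillary barcodes, against 13.6 and 14.0 CPM in the remaining ones, and nearly all of this was Cd247, a signalling chain of the T-cell receptor, at 58.6 and 52.7 CPM (exons of Pou2f1 overlap it on the opposite strand). Cd3e, which defines T cells, had 1 UMI in library 1 and 0 in library 2. A doublet score marked 87 capillary barcodes (14.3%) in library 1 and 90 (9.17%) in library 2. The part of these transcripts and doublets in the differences below was not tested, beyond the values given where a result changed without them.

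**Figure D1:**
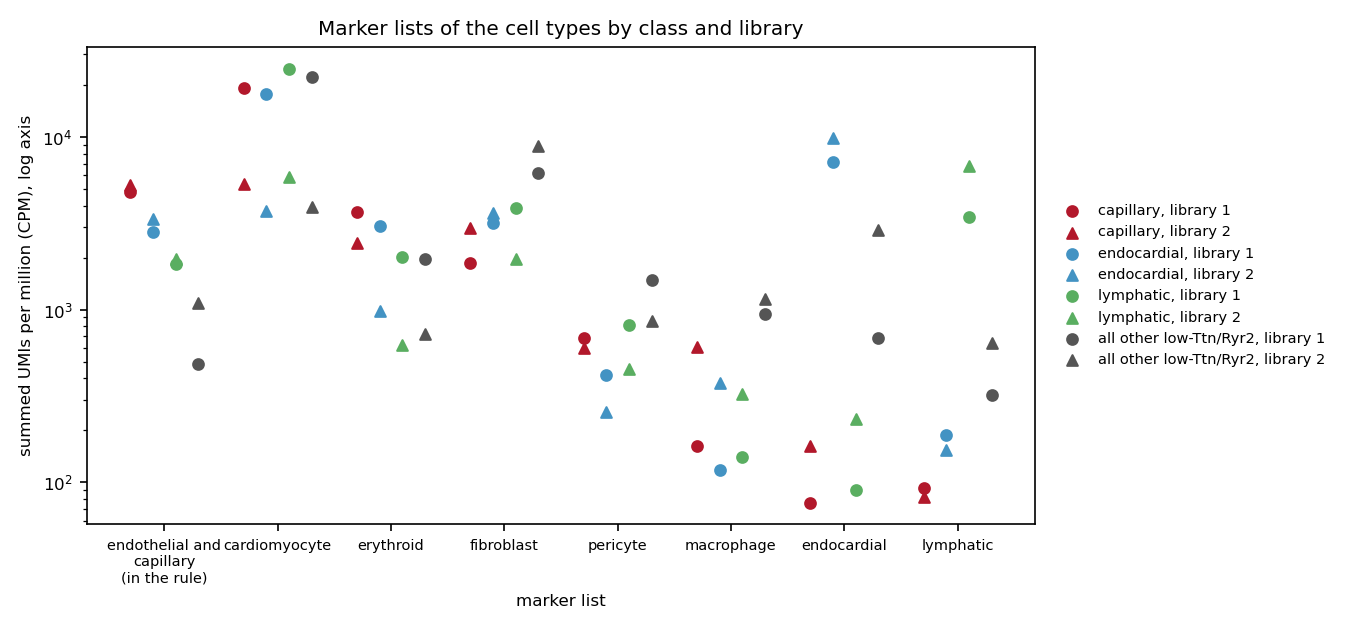
Summed CPM of each marker list (log axis) in capillary, endocardial, lymphatic and all other low-Ttn/Ryr2 barcodes; circles are library 1 and triangles library 2. Cardiomyocyte transcripts lie higher in library 1 in every class, and fibroblast transcripts are lower in capillary barcodes (1854 and 2984 CPM) than in the remaining barcodes (6156 and 8883 CPM). The cardiomyocyte, endocardial and lymphatic lists include genes that the selection rule limits.

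The targeted genes were measured in every library. Ep300 had 137 and 174 CPM in capillary barcodes of libraries 1 and 2, against 134 and 169 CPM in the remaining barcodes. Crebbp had 430 and 559 CPM against 424 and 549 CPM. Neither difference passed, with log2 differences of 0.22 ± 0.15 (SE, adjusted p = 0.35) for Ep300 and 0.20 ± 0.16 (adjusted p = 0.407) for Crebbp. Counts of 3' tags without a control sample do not show whether an exon was deleted. The GFP feature had 6 and 13 UMIs in capillary barcodes, at 4.45 and 4.28 CPM against 9.22 and 2.61 CPM in the remaining barcodes, and the labels do not say what carries GFP. Of 12 lysine acetyltransferase genes tested, Ncoa3, a nuclear receptor coactivator, was the 1 that passed against the remaining barcodes. Of all genes, 11.6% were higher and 10.9% lower there. Ncoa3 had 207 and 252 CPM in capillary barcodes and 142 and 187 CPM in the remaining ones (log2 0.66 ± 0.15, adjusted p = 0.00819). DESeq2 did not call it (adjusted p = 0.0854).

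Against the remaining barcodes, edgeR's quasi-likelihood test with library as a block called 969 of 14569 tested genes at least 2-fold higher in capillary barcodes (6.65%) and 1204 at least 2-fold lower (8.26%), at an adjusted p under 0.05. Without the limit on fold, 1687 genes were higher (11.6%) and 1593 lower (10.9%), and the gene lists below are counted this way. All 969 higher genes had the same sign in both libraries, as did 1183 of the 1204 lower ones. The median log2 difference of all tested genes was 0.04. Scaling by library size alone lowered the median difference by 0.189 and gave 781 higher and 1569 lower genes. Genes that go with endothelial markers differ between classes set by such markers, so these counts describe the class and are no independent evidence of its identity.

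The genes with the largest positive differences included membrane proteins and transcriptional regulators. Aqp7, a channel for water and glycerol, had 115 and 74.8 CPM in capillary barcodes of libraries 1 and 2, against 5.88 and 3.09 CPM in the remaining barcodes (log2 4.64 ± 0.20, adjusted p = 2.65e-07). Slc28a2, a sodium-coupled carrier of purine nucleosides, had 289 and 297 CPM against 15.6 and 16.4 CPM (log2 4.37 ± 0.17). Aplnr, the receptor of the peptide apelin, had 133 and 116 CPM against 8.02 and 6.10 CPM (log2 4.35 ± 0.19). In each of these genes both capillary libraries lay far above both libraries of the remaining barcodes. C1qtnf9, a secreted protein of the C1q and TNF family, reached a log2 difference of 4.56 ± 0.21, and Lhx6, a LIM-homeodomain transcription factor, one of 4.41 ± 0.19. Dach1, a transcriptional regulator known from coronary artery growth, had 1309 and 1982 CPM against 111 and 99.8 CPM (log2 4.12 ± 0.24, adjusted p = 1.25e-06). Adgrl4, an adhesion receptor of endothelial cells, had 1659 and 1852 CPM against 93.7 and 143 CPM. Slc26a10, Zfp366, Pcdh17, Adgrg1 and Abcb1a completed the 12 largest, with log2 differences from 4.06 to 4.63. Exons of Slc26a10 overlap B4galnt1 on the opposite strand, and as the use of strand in counting is unstated, reads of such pairs cannot be told apart.

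**Figure D2:**
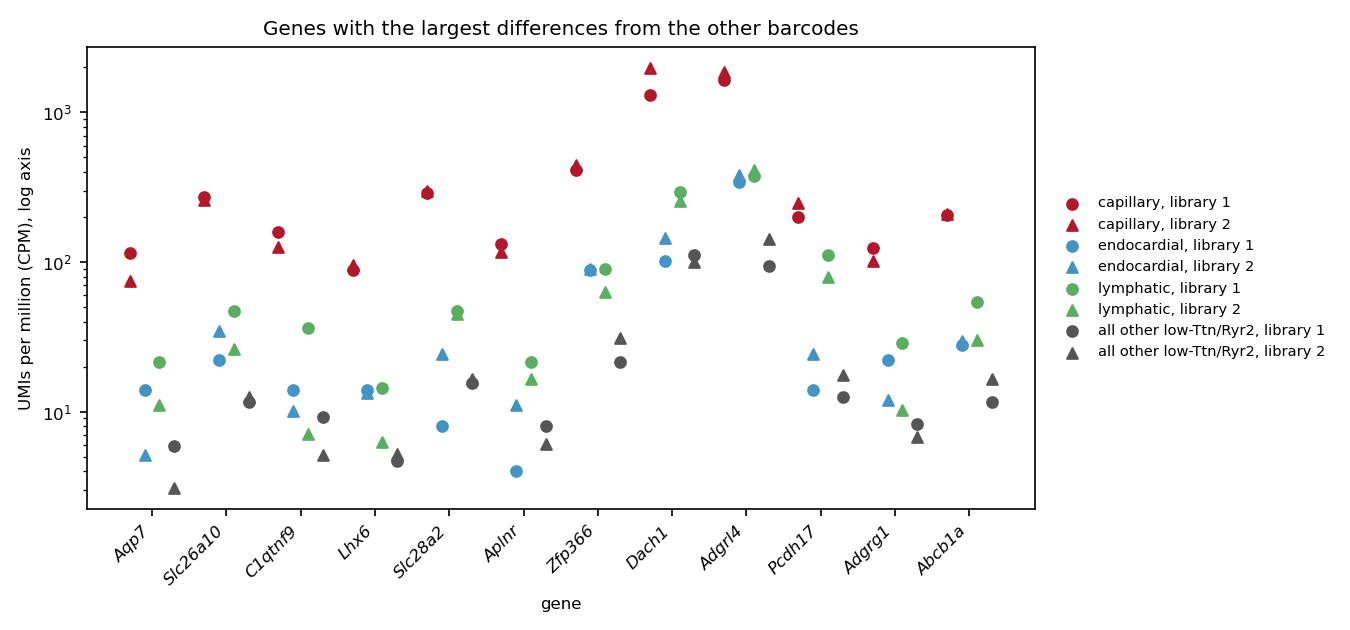
CPM (log axis) of the 12 genes with the largest positive difference from the remaining barcodes, in capillary, endocardial, lymphatic and all other low-Ttn/Ryr2 barcodes; circles are library 1 and triangles library 2. In all 12 genes both capillary libraries lie above both libraries of each other class, as for Aplnr with 133 and 116 CPM.

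Genes with the largest negative differences included genes of the other endothelial classes. Nrg1, a ligand that endocardium sends to cardiomyocytes, had 9.64 and 25.7 CPM in capillary barcodes, against 107 and 424 CPM in the remaining barcodes (log2 -3.68 ± 0.21, adjusted p = 1.05e-06). With barcodes of at least 3 pan-endothelial UMIs taken out of the remaining ones, the Nrg1 difference was -0.16 (adjusted p = 0.714). Cdh11, a cadherin, had 6.68 and 48.8 CPM against 117 and 640 CPM (log2 -3.60 ± 0.20). Reln, a secreted glycoprotein made by lymphatic endothelium, had 8.16 and 5.93 CPM against 42.2 and 135 CPM (log2 -3.60 ± 0.36). Col23a1, a membrane collagen, also lost its call without those barcodes (adjusted p = 0.0794).

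Among fatty acid uptake genes, 8 were higher in capillary barcodes than in each of the other classes. The share of all genes higher in every comparison is not given here, and the shares below are of single comparisons. Of 20 listed genes, 19 were tested against the remaining barcodes, and 10 were higher and 0 lower, beside 11.6% and 10.9% of all genes, with a median log2 difference of 0.90 against 0.04 for all genes. Against endocardial barcodes 10 of 18 were higher and 1 lower (median 1.41), beside 7.76% and 7.87% of the 11558 genes tested there. Against lymphatic barcodes 9 of 18 were higher and 0 lower (median 0.96), beside 7.24% and 6.44%. At an unadjusted p under 0.05, edgeR still found 0 of the list lower against the remaining or lymphatic barcodes. These comparisons share the capillary sums, so their counts are not independent of each other.

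At the lumen, Gpihbp1, which holds lipoprotein lipase on the capillary wall, had 383 and 251 CPM in capillary barcodes of libraries 1 and 2. It had 36.0 and 27.1 CPM in endocardial, 148 and 114 CPM in lymphatic and 27.3 and 17.1 CPM in the remaining barcodes. The log2 differences were 3.26 ± 0.18, 1.30 ± 0.17 and 4.02 ± 0.17 against these classes, with adjusted p from 1.21e-08 to 7.36e-05. Both capillary libraries thus lay above all 6 other sums, and the lymphatic class was the nearest. In 40 lymphatic barcodes that missed the capillary rule only by having 2 lymphatic UMIs, Gpihbp1 was at 220 CPM. In 40 endocardial barcodes that missed it only by having 2 endocardial UMIs, it was at 170 CPM. The part of such barcodes in the levels of these classes was not tested. Cd36, the scavenger receptor that takes up long-chain fatty acids, had 3677 and 3081 CPM in capillary barcodes, or 3379 ± 421 CPM (SD, n = 2 libraries). It had 895 and 605 CPM in endocardial, 1208 and 620 CPM in lymphatic and 905 and 349 CPM in the remaining barcodes (log2 2.76 ± 0.28 against the last, adjusted p = 4.94e-05). Cardiomyocytes also express Cd36. After thinning each barcode to 1000 UMIs, 94.5% and 86.6% of capillary barcodes held a Cd36 UMI (98.9% and 96.1% before thinning), against 45% and 16.9% of the remaining barcodes with no pan-endothelial UMI. With the limit on Ttn and Ryr2 lowered to 0.5% of UMIs, the Cd36 difference was 3.22, and in libraries 1 and 2 alone it was 2.02 and 3.14.

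Inside the cell, Fabp4, which binds fatty acids in the cytoplasm, had 2066 and 1643 CPM in capillary barcodes, against 266 and 176 CPM in the remaining barcodes (log2 3.27 ± 0.19, adjusted p = 1.25e-06). Fabp5, its relative, did not follow. It had 164 and 138 CPM in capillary barcodes, against 523 and 524 CPM in endocardial barcodes, where it was higher than in capillary barcodes (log2 -1.83 ± 0.16, adjusted p = 1.14e-06). Against the remaining barcodes Fabp5 did not pass (log2 0.37 ± 0.24, adjusted p = 0.327). Transcription factors of the programme were also higher. Pparg, a lipid-activated nuclear receptor, had 441 and 502 CPM in capillary barcodes, against 43.6 and 39.5 CPM in the remaining barcodes (log2 3.69 ± 0.18). Meox2 and Tcf15, partners known to drive fatty acid transport genes in heart endothelium, had log2 differences of 3.42 ± 0.17 and 3.56 ± 0.18. Lipe, a hormone-sensitive lipase, had 170 and 120 CPM against 42.9 and 25.0 CPM (log2 2.31 ± 0.17), and Scarb1, a lipoprotein receptor, had a difference of 2.84 ± 0.17. Mfsd2a, a lipid carrier of brain capillaries, had 0 UMIs in both capillary libraries, where 3 UMIs is the limit that a count of 0 allows.

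Promoter sequence is shown for the uptake receptor Cd36 and the receptor Pparg, since their products act on the same lipids and both genes were higher against every class. Of the 8 list members called higher in each comparison, 4 had an entry in the RefSeq promoter table of GRCm38.p6, namely Cd36, Pparg, Meox2 and Lipe. Each window runs 5′ to 3′ from 250 bases before to 50 after the annotated start. Capitals mark the nuclear receptor core AGGTCA or, on the other strand, TGACCT.
Cd36 (chr5:17835847-17836146, minus strand): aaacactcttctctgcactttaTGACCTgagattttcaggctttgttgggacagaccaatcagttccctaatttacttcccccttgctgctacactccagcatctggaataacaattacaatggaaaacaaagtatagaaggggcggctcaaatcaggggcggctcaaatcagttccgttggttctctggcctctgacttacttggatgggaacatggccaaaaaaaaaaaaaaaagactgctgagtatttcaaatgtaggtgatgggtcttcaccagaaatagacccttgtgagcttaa
Pparg (chr6:115360894-115361193, plus strand): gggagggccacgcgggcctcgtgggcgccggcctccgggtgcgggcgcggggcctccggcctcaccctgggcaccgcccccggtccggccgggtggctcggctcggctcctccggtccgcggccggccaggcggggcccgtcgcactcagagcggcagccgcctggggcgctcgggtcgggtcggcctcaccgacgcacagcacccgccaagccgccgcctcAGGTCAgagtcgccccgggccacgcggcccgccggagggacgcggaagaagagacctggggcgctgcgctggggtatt
This core was found for 2 of the 4 genes, in the Cd36 window and in 2 of 3 windows of Pparg, and in none of the Meox2 and Lipe windows. It occurred in 16.3% of 32851 promoter windows in the table and for 18.1% of its 27025 genes. Both genes printed hold it and Meox2 and Lipe do not, so the printed windows do not stand for all 4 genes. The ETS core CCGGAAG, or CTTCCGG on the other strand, was found for 1 of the 4 genes, in a window of Lipe. It occurred in 8.86% of all windows and for 9.93% of all genes there. Such matches describe letters and are not binding sites.

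Carriers and channels for several kinds of solute were higher in capillary barcodes. Of 21 solute and water transport genes tested against the remaining barcodes, 10 were higher and 2 lower (median log2 0.69). The shares of all genes were 11.6% and 10.9%. Against endocardial barcodes 9 of 18 were higher and 1 lower, beside 7.76% and 7.87% of all genes, and against lymphatic barcodes 9 of 18 were higher and 0 lower, beside 7.24% and 6.44%. Aqp1, the water channel, had 833 and 592 CPM in capillary barcodes, against 98.5 and 139 CPM in the remaining barcodes (log2 2.76 ± 0.22, adjusted p = 9.23e-06). Slc6a6, the taurine carrier, had 626 and 623 CPM against 121 and 118 CPM (log2 2.57 ± 0.16). Abcb1a, an efflux pump, had 208 and 209 CPM against 11.6 and 16.6 CPM (log2 4.06 ± 0.18), and its exons overlap a gene on the opposite strand. The 4 listed glucose carriers, Slc2a1, Slc2a3, Slc2a4 and Slc2a12, did not pass against the remaining barcodes. Slc2a1, the glucose carrier of barrier endothelium, had only 8.16 and 5.27 CPM in capillary barcodes, against 6.01 and 6.72 CPM in the remaining ones (log2 0.16 ± 0.39, adjusted p = 0.814). Insr, the insulin receptor, had 239 and 257 CPM against 379 and 250 CPM (log2 -0.12 ± 0.20, adjusted p = 0.719).

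**Figure D3:**
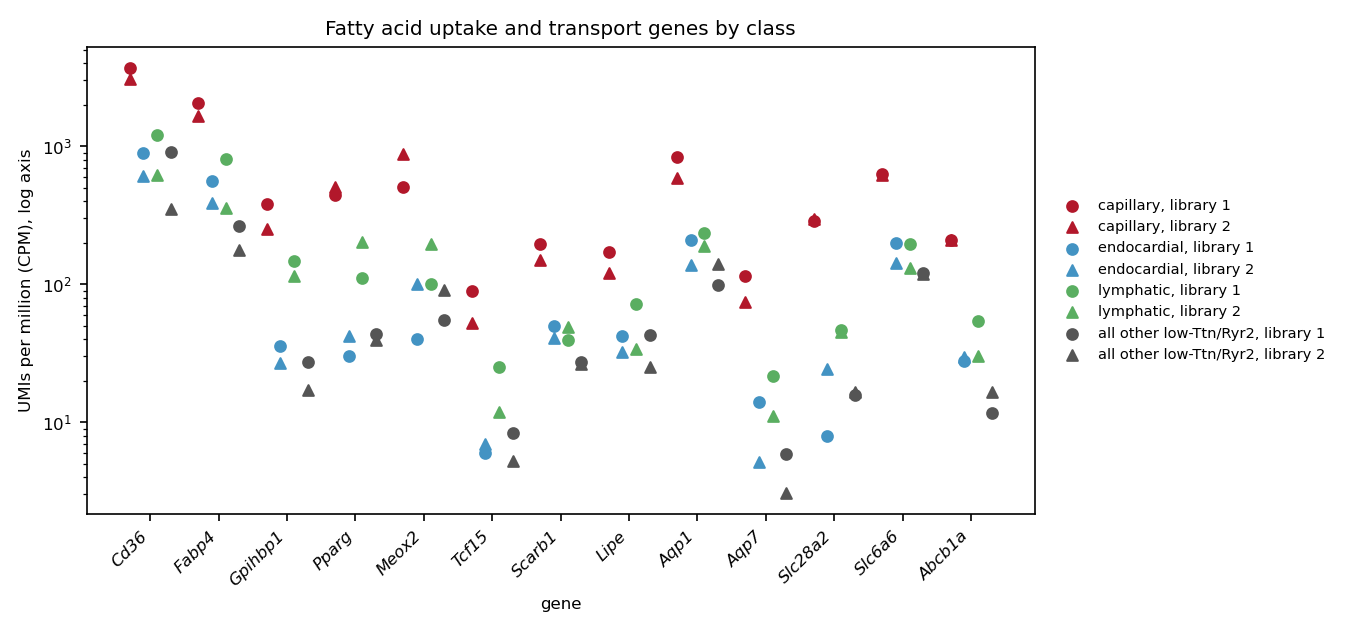
CPM (log axis) of 8 fatty acid uptake genes and 5 transport genes in capillary, endocardial, lymphatic and all other low-Ttn/Ryr2 barcodes; circles are library 1 and triangles library 2. Both capillary libraries are the highest in every gene, with Cd36 at 3677 and 3081 CPM.

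Receptors for growth signals were higher in capillary barcodes than in the remaining ones, and their ligands were mixed. Among 14 VEGF, angiopoietin and apelin genes tested against the remaining barcodes, 8 were higher and 3 lower (median log2 1.25). The shares of all genes were 11.6% and 10.9%. Against endocardial barcodes 4 of 13 were higher and 2 lower (median 0.14), beside 7.76% and 7.87%. Against lymphatic barcodes 5 of 13 were higher and 3 lower (median 0.20), beside 7.24% and 6.44%. Kdr, the main VEGF receptor, had 350 and 357 CPM in capillary barcodes, against 46.1 and 108 CPM in the remaining barcodes (log2 2.48 ± 0.24, adjusted p = 3.39e-05). Kdr was also higher than in endocardial barcodes, at 93.9 and 100.5 CPM (log2 1.85 ± 0.17), and did not pass against lymphatic ones, at 238 and 317 CPM (log2 0.39 ± 0.16, adjusted p = 0.155). Aplnr was higher against all of the classes, with 4 and 11.1 CPM in endocardial and 21.6 and 16.6 CPM in lymphatic barcodes. Its ligand gene Apln had only 5.19 and 6.92 CPM in capillary barcodes, against 1.07 and 0.619 CPM in the remaining ones (log2 3.22 ± 0.55, adjusted p = 0.0016). Nrp2, a VEGF-C co-receptor, was higher than in endocardial barcodes (log2 1.63 ± 0.17) and lower than in lymphatic ones, at 472 and 531 CPM against 670 and 897 CPM (log2 -0.57 ± 0.16, adjusted p = 0.0267). This lymphatic difference of Nrp2 lost its call under 5 settings that kept the library block, among them DESeq2 (adjusted p = 0.0879). It was -0.12 (adjusted p = 0.748) in the 215 and 109 capillary barcodes with 0 UMIs of 10 genes of other cell types, a selection added after the data were seen. Vegfc, a ligand of the lymphatic receptor, was higher in capillary barcodes, at 167 and 358 CPM against 75.7 and 52.8 CPM in lymphatic barcodes (log2 2.35 ± 0.28). Angpt2 was lower than in lymphatic barcodes, with 27.4 and 14.5 CPM against 61.3 and 112 CPM (log2 -2.28 ± 0.32). Esm1, a tip-cell gene, had 2 UMIs in each capillary library.

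Notch and arterial genes were split. Against the remaining barcodes 13 of 20 were higher and 4 lower (median log2 1.17), beside 11.6% and 10.9% of all genes. Against endocardial barcodes 7 were higher and 4 lower, beside 7.76% and 7.87%. Against lymphatic barcodes 6 were higher and 3 lower, beside 7.24% and 6.44%. The lymphatic counts were 5 and 6 with Ttn and Ryr2 under 0.5%. Jag2, a Notch ligand, had 60.1 and 49.4 CPM in capillary barcodes, against 4.41 and 4.15 CPM in the remaining barcodes (log2 3.84 ± 0.21). Dll4, the Notch ligand of growing and arterial vessels, had 60.8 and 41.9 CPM against 5.61 and 6.50 CPM (log2 3.18 ± 0.22, adjusted p = 4.44e-06). Sox17, an arterial transcription factor, and Sema3g, an arterial semaphorin, had differences of 3.62 ± 0.20 and 3.16 ± 0.20. The arterial connexin Gja4 went the other way, with 12.6 and 9.23 CPM in capillary barcodes, against 71.9 and 53.1 CPM in endocardial barcodes (log2 -2.51 ± 0.25) and 82.9 and 89.1 CPM in lymphatic barcodes (log2 -3.01 ± 0.27). Bmx, an arterial kinase, was also lower, with 7.42 and 32.6 CPM against 236 and 336 CPM in endocardial barcodes (log2 -3.74 ± 0.29). Notch1, the receptor, had 149 and 143 CPM against 248 and 298 CPM in endocardial barcodes (log2 -0.94 ± 0.16), whereas Notch4 was higher than there (log2 0.71).

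Venous genes were low in capillary barcodes beside the endocardium. Of 10 tested against endocardial barcodes, 0 were higher and 6 lower (median log2 -0.93), beside 7.76% and 7.87% of all genes. Against lymphatic barcodes the list was mixed, with 2 of 10 higher and 4 lower (median 0.14), beside 7.24% and 6.44%. Vwf, the clotting protein stored in endothelial granules, had 108 and 267 CPM in capillary barcodes, against 1612 and 2058 CPM in endocardial barcodes (log2 -3.40 ± 0.22, adjusted p = 4.51e-08). Plvap, which forms the diaphragms of fenestrae and caveolae, had 2.97 and 13.2 CPM against 126 and 204 CPM (log2 -4.24 ± 0.26). Vcam1, a leukocyte adhesion molecule, had 27.4 and 59.0 CPM against 320 and 378 CPM (log2 -3.00 ± 0.21). Against the remaining barcodes 2 venous genes were higher and 3 lower, beside 11.6% and 10.9% of all genes, or 1 and 1 with DESeq2. The 3 lower ones depended on which barcodes were among the remaining ones. Without barcodes of at least 3 pan-endothelial UMIs among the remaining ones, the log2 difference of Vwf was 2.91 in place of -0.59, that of Plvap 0.61 in place of -1.93 and that of Vcam1 0.50 in place of -0.76. Ephb4, a receptor of venous identity, had 190 and 203 CPM in capillary barcodes, against 156 and 203 CPM in endocardial and 159 and 265 CPM in lymphatic barcodes, and passed in neither comparison.

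Single barcodes were then read for arterial and venous transcripts, each thinned to 1000 UMIs, which left out 64 and 32 shallower capillary barcodes of libraries 1 and 2. A UMI of Jag2, Dll4, Sox17, Sema3g or Gja5 was found in 21.5% (18.1 to 25.2) of 545 and 16.5% (14.2 to 19.1) of 949 capillary barcodes, and before thinning in 34.5% and 35.4%. The share was 2.90% and 2.88% in endocardial barcodes and 0.940% and 0.641% in remaining barcodes with no pan-endothelial UMI, whose median depths were 1480 and 3020 UMIs. Transcripts of these arterial genes were thus seen in a minority of capillary barcodes at this depth. For the whole list of 20 Notch and arterial genes, the thinned share was 84.6% in library 1. Jag2, Sox17, Dll4 and Sema3g were the list's largest calls against the remaining barcodes. Jag2, Sox17 and Sema3g were also among its largest calls against endocardial barcodes. A share above those of remaining and endocardial barcodes therefore follows from the choice of genes. The arterial genes Bmx and Gja4, which were lower in capillary than in endocardial barcodes, were not in this set. A UMI of Nr2f2, Vwf, Vcam1, Selp or Ackr1 was found in 11.4% (8.83 to 14.3) and 23.6% (20.9 to 26.4) of capillary barcodes, and before thinning in 19.4% and 39.7%. Remaining barcodes with no pan-endothelial UMI held one in 10.4% and 14.7%, which lies inside the interval of the capillary share in library 1 and below it in library 2. These barcodes held Nr2f2 in 7.42% and 7.28%, so they are no cells without venous transcripts. Vwf was found in 4.59% and 12.6% of capillary barcodes (8.21% and 21.2% before thinning), against 1.04% and 3.10%. Among capillary barcodes with an arterial UMI, a venous UMI was found in 9 of 117 (7.69%, 3.58 to 14.1) and 23 of 157 (14.6%, 9.52 to 21.2). Among those without an arterial UMI, it was found in 53 of 428 (12.4%, 9.42 to 15.9) and 201 of 792 (25.4%, 22.4 to 28.6). The intervals overlapped in library 1 and did not in library 2. They cover counting error only, and barcodes of 1 library are not replicates.

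**Figure D4:**
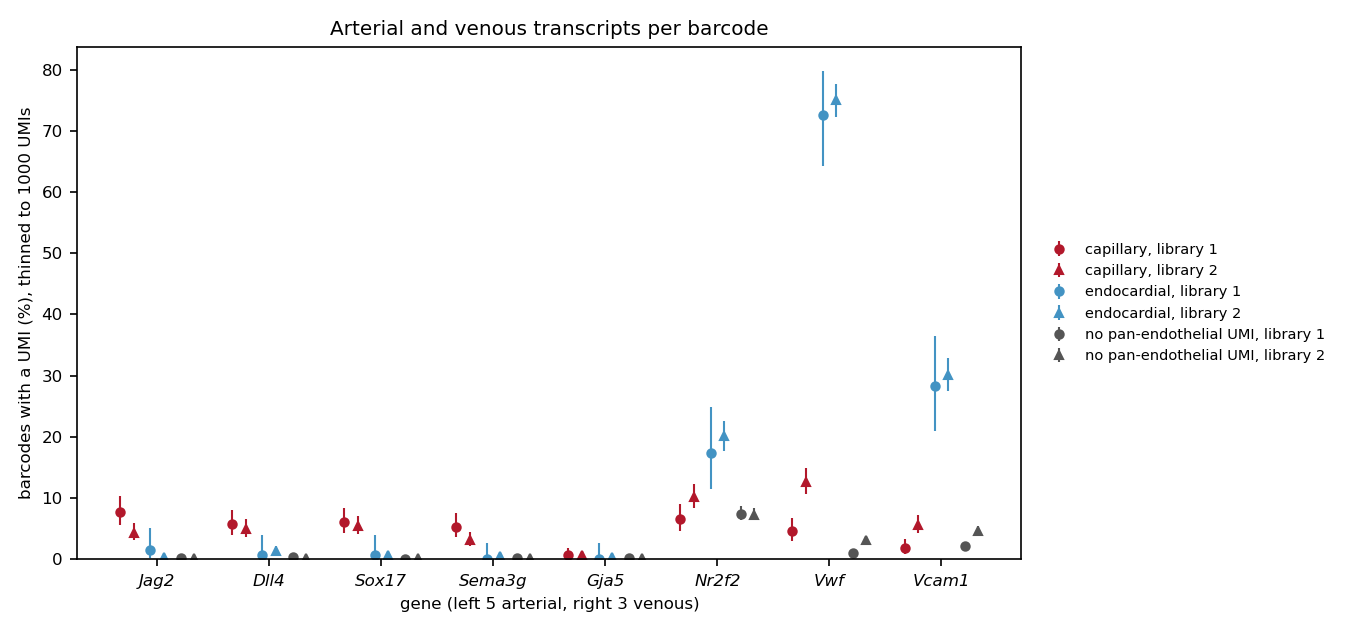
Percent of barcodes with a UMI of 5 arterial and 3 venous genes after thinning to 1000 UMIs, in capillary barcodes, endocardial barcodes and remaining barcodes with no pan-endothelial UMI; circles are library 1, triangles library 2 and bars 95% exact binomial intervals. Vwf was found in 4.59% and 12.6% of capillary barcodes and in 72.5% and 75.0% of endocardial barcodes.

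Caveolae, the membrane pits of endothelial transcytosis, were represented by 13 genes. Against the remaining barcodes 8 were higher and 1 lower (median log2 1.17), beside 11.6% and 10.9% of all genes. Against endocardial barcodes 5 of 12 were higher and 2 lower (median 0.40), beside 7.76% and 7.87%, or 2 and 2 with DESeq2. Against lymphatic barcodes 3 were higher and 2 lower (median 0.32), beside 7.24% and 6.44%. Cav1, their main coat protein, had 612 and 811 CPM in capillary barcodes, against 92.1 and 169 CPM in the remaining barcodes (log2 2.67 ± 0.17, adjusted p = 2.58e-06). It was also higher than in endocardial barcodes, at 270 and 333 CPM (log2 1.22 ± 0.16), and than in lymphatic ones, at 382 and 538 CPM (log2 0.69 ± 0.16, adjusted p = 0.0084). The lymphatic difference of Cav1 was 0.64 (adjusted p = 0.0656) without marked doublets, 0.51 (adjusted p = 0.144) with the stricter selection and 0.42 (adjusted p = 0.134) with Ttn and Ryr2 under 0.5%. Dnm3, a dynamin, had 821 and 1005 CPM in capillary barcodes, against 97.9 and 103 CPM in endocardial barcodes (log2 3.18 ± 0.18), and 2 genes on the opposite strand overlap its exons. Cavin2, listed as Sdpr, was at 352 and 444 CPM in capillary barcodes and 356 and 415 CPM in endocardial barcodes (log2 0.03 ± 0.16, adjusted p = 0.955).

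Endothelial identity and junction genes follow the selection when set against the remaining barcodes. There 32 of 34 were higher and 1 lower (median log2 2.15), beside 11.6% and 10.9% of all genes. Set against other endothelial classes the list was mixed. In it 17 genes were higher and 7 lower than in endocardial barcodes, beside 7.76% and 7.87% of all genes. Against lymphatic barcodes 20 were higher and 3 lower, beside 7.24% and 6.44%. Cldn5, the tight junction claudin, had 180 and 88.6 CPM in capillary barcodes, against 18.0 and 12.3 CPM in endocardial barcodes (log2 3.09 ± 0.29, adjusted p = 1.9e-06). In lymphatic barcodes it had 469 and 504 CPM, above the capillary level (log2 -1.94 ± 0.22, adjusted p = 1.76e-05). Thus the order of Cldn5 was lymphatic, capillary, endocardial, and no 2 of these classes overlapped. Cgnl1, a junction adaptor, had 114 and 145 CPM in capillary barcodes, against 1372 and 2143 CPM in endocardial barcodes (log2 -3.77 ± 0.18). Jam2, a junction adhesion molecule, had 326 and 366 CPM in capillary barcodes, against 97.3 and 52.0 CPM in lymphatic barcodes (log2 2.5 ± 0.24). Emcn, a sialomucin of capillaries and veins, had 449 and 618 CPM and was lower than in endocardial barcodes (log2 -1.20).

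Genes of BMP and TGF-beta signalling were mixed. Of 19 tested against endocardial barcodes, 2 were higher and 8 lower (median log2 -0.18, and -0.01 for all genes), beside 7.76% and 7.87% of all genes. Against lymphatic barcodes 4 of 19 were higher and 4 lower (median 0.44), beside 7.24% and 6.44%. Eng, a co-receptor, had 630 and 633 CPM in capillary barcodes, against 1818 and 1705 CPM in endocardial barcodes (log2 -1.5 ± 0.16, adjusted p = 6.78e-06). Smad6, an inhibitor of BMP signalling, had 77.2 and 137 CPM against 326 and 575 CPM (log2 -2.09 ± 0.21), and Id2 had a difference of -2.35 ± 0.33. Id1, a target of BMP signalling, was higher than in every other class, with 201 and 148 CPM in capillary barcodes and 71.9 and 78.1 CPM in endocardial barcodes (log2 1.08 ± 0.18). Bmp6, a ligand, did not pass against endocardial barcodes, at 707 and 966 CPM and 917 and 1066 CPM, and was higher than in lymphatic ones, at 202 and 238 CPM (log2 1.99 ± 0.18). Against the remaining barcodes 10 of 21 genes of the list were higher and 4 lower (median -0.07), beside 11.6% and 10.9% of all genes. DESeq2 or the stricter selection gave 6 and 3.

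Genes of the response to blood flow were higher in 9 and lower in 0 of 16 tested against the remaining barcodes (median log2 0.96). The shares of all genes were 11.6% and 10.9% there, 7.76% and 7.87% against endocardial and 7.24% and 6.44% against lymphatic barcodes. Against endocardial barcodes 4 of 15 were higher and 3 lower (median 0.16), and against lymphatic barcodes 5 were higher and 1 lower (median 0.47). With DESeq2 2 were higher in each of these comparisons. S1pr1, the sphingosine phosphate receptor, had 254 and 194 CPM in capillary barcodes, against 35.0 and 48.9 CPM in the remaining barcodes (log2 2.58 ± 0.20) and 112 and 125 CPM in endocardial barcodes (log2 0.83 ± 0.17). Nos3, endothelial nitric oxide synthase, had 151 and 162 CPM in capillary barcodes, against 248 and 347 CPM in endocardial barcodes (log2 -0.97 ± 0.17, adjusted p = 0.00087) and 35.7 and 102 CPM in the remaining ones (log2 1.5 ± 0.26). In the capillary barcodes with 0 UMIs of 10 genes of other cell types, the Nos3 difference from endocardial barcodes was -0.51 (adjusted p = 0.135). Klf2, the flow-induced transcription factor, had 171 and 215 CPM in capillary barcodes and 148 and 204 CPM in endocardial barcodes (log2 0.12 ± 0.16, adjusted p = 0.732). Edn1, endothelin, was lower than in endocardial barcodes, at 11.9 and 25.0 CPM against 53.9 and 63.1 CPM (log2 -1.58 ± 0.25). Heg1 was lower than in endocardial and higher than in lymphatic barcodes, with differences of -1.28 ± 0.18 and 1.36 ± 0.19.

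Of 27 basement membrane and integrin genes, 7 were higher and 11 lower against the remaining barcodes (11.6% and 10.9% of all genes). Against endocardial barcodes (7.76% and 7.87% of all genes) and against lymphatic barcodes (7.24% and 6.44%), 8 were higher and 5 lower. The list medians of -0.03, -0.08 and 0.05 lay near the all-gene medians of 0.04, -0.01 and 0.02. With DESeq2 the counts were 7 and 6 against the remaining and 4 and 5 against lymphatic barcodes. Col4a3 and Col4a4, chains of a specialised collagen IV network, had 6.68 and 33.3 CPM and 14.1 and 58.0 CPM in capillary barcodes. Endocardial barcodes had 360 and 705 CPM of Col4a3 (log2 -4.70 ± 0.26) and 511 and 944 CPM of Col4a4 (log2 -4.37 ± 0.24). Col4a1, a chain of the common network, showed the opposite, with 812 and 771 CPM in capillary barcodes against 316 and 327 CPM in endocardial barcodes (log2 1.28 ± 0.16, adjusted p = 3.75e-05). Itga1, a collagen-binding integrin, had 582 and 613 CPM against 126 and 155 CPM (log2 2.06 ± 0.16), and Sparcl1, a secreted matrix protein, had 463 and 458 CPM against 67.9 and 62.7 CPM (log2 2.78 ± 0.19). Fn1, fibronectin, was lower than in lymphatic barcodes, with 63.1 and 73.8 CPM against 303 and 475 CPM (log2 -2.46 ± 0.18).

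Interferon and MHC class I genes were higher in capillary barcodes in 22 of 27 tested against the remaining barcodes, with 0 lower. Their median log2 difference was 1.17, and the shares of all genes were 11.6% higher and 10.9% lower. Against endocardial barcodes 8 of 27 were higher and 0 lower (median 0.57), beside 7.76% and 7.87% of all genes. Against lymphatic barcodes 13 were higher and 0 lower (median 0.96), beside 7.24% and 6.44%. At an unadjusted p under 0.05, 25, 12 and 17 were higher against the remaining, endocardial and lymphatic barcodes, and 0 lower in each. Rsad2, an antiviral enzyme, had 94.2 and 90 CPM in capillary barcodes, against 12 and 7.58 CPM in endocardial, 39.6 and 27.6 CPM in lymphatic and 8.55 and 9.23 CPM in the remaining barcodes. Its log2 differences were 3.40 ± 0.25, 1.62 ± 0.25 and 3.54 ± 0.18. Iigp1, an interferon-induced GTPase, had 148 and 221 CPM against 49.2 and 40.6 CPM in the remaining barcodes (log2 2.22 ± 0.22, adjusted p = 4.87e-05), and Gbp4, of a family of similar GTPases with overlapping exons, had 68.2 and 68.5 CPM against 4.28 and 14.4 CPM (log2 3.06 ± 0.30). The antigen-presenting genes differed less. B2m, the MHC class I light chain, had 268 and 390 CPM against 171 and 287 CPM (log2 0.72 ± 0.15, adjusted p = 0.00539), and B2m, H2-D1 and H2-K1 did not pass against endocardial barcodes (adjusted p 0.826, 0.578 and 0.668). A UMI of Rsad2 was found in 9.72% and 7.59% of thinned capillary barcodes (14.6% and 15.6% before thinning), against 0.445% and 0.438% of remaining barcodes with no pan-endothelial UMI. A minority of barcodes thus showed Rsad2 at this depth. A UMI of any gene of the list was found in 80.4% of thinned capillary barcodes of library 1. With DESeq2 the list counts of higher genes were 17 against the remaining, 3 against endocardial and 6 against lymphatic barcodes, and with the stricter selection 18, 4 and 7. In the capillary barcodes with 0 UMIs of 10 genes of other cell types they were 19, 7 and 12.

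**Figure D5:**
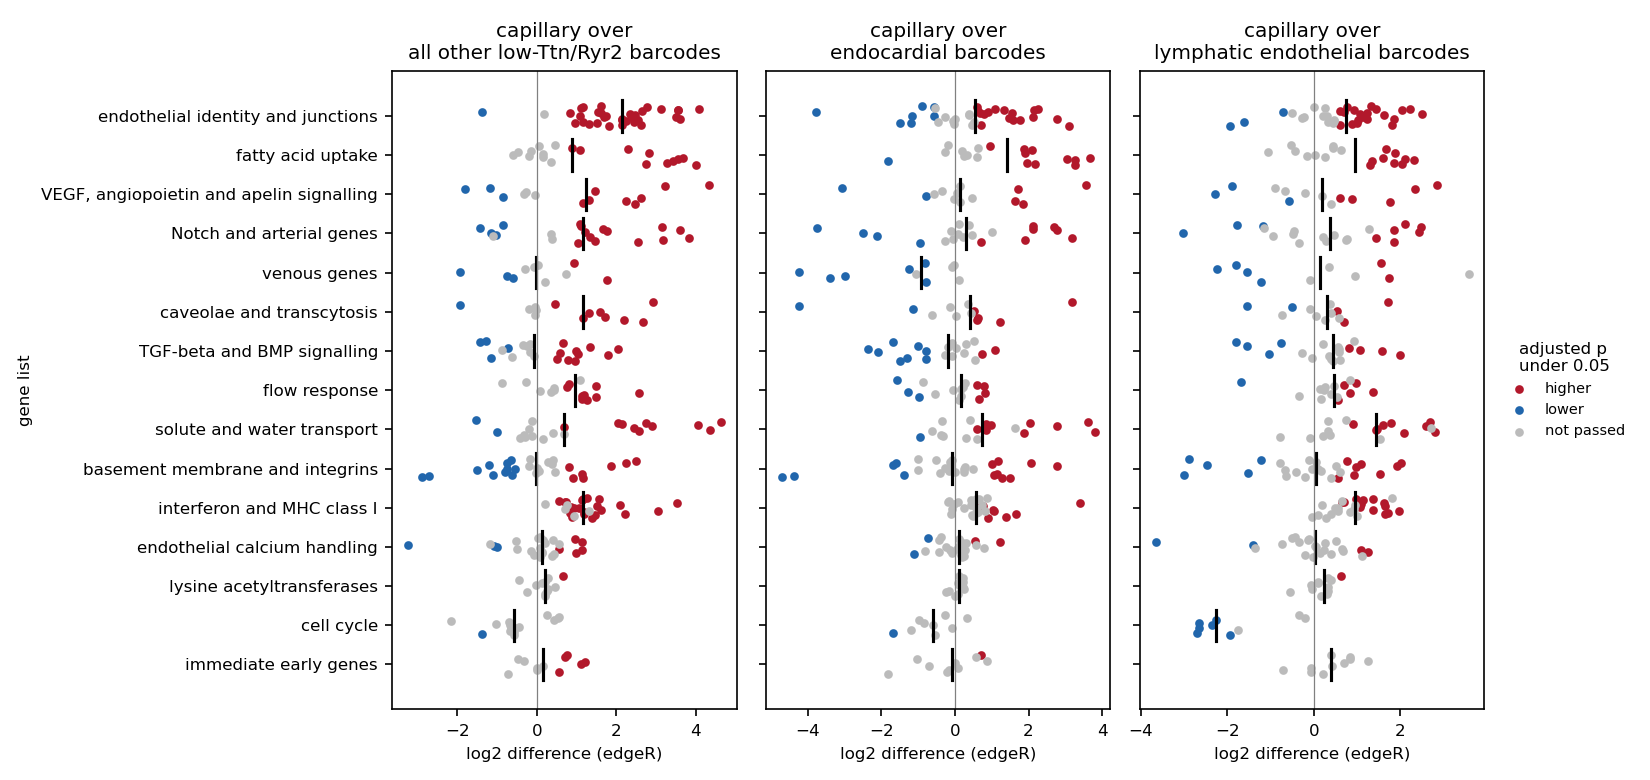
Log2 differences of the tested members of the 15 gene lists, capillary over all other low-Ttn/Ryr2, endocardial and lymphatic barcodes; red and blue points passed an adjusted p of 0.05 as higher or lower, grey points did not, and black bars are list medians. The fatty acid uptake medians are 0.90, 1.41 and 0.96, and the cell cycle medians are -0.57, -0.60 and -2.26.

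Calcium handling, the subject of the study's title in cardiomyocytes, was read from genes of endothelial calcium handling. Of 25 genes 5 were higher and 3 lower against the remaining barcodes, beside 11.6% and 10.9% of all genes. Their median log2 difference of 0.12 became -0.09 under scaling by library size. Against endocardial barcodes 2 of 23 were higher and 2 lower (median 0.11), beside 7.76% and 7.87%. Against lymphatic barcodes 2 of 23 were higher and 2 lower (median 0.03), beside 7.24% and 6.44%. Itpr2, a calcium release channel, had 431 and 629 CPM in capillary barcodes, against 217 and 402 CPM in the remaining barcodes (log2 0.99 ± 0.16, adjusted p = 0.00101) and 238 and 237 CPM in lymphatic barcodes (log2 1.25 ± 0.19). Piezo1, the channel opened by shear stress, had 156 and 158 CPM against 55.3 and 112 CPM in the remaining barcodes (log2 1.14 ± 0.21). Piezo2, its relative, had 22.3 and 57.0 CPM, far below the 324 and 736 CPM of lymphatic barcodes (log2 -3.65 ± 0.29, adjusted p = 6.86e-07). Against endocardial barcodes Piezo2 was called higher, yet in library 1 alone the difference was -0.61, and DESeq2 did not call it (adjusted p = 0.999). Atp2a2, the pump of the sarcoplasmic reticulum, had 2603 and 689 CPM in capillary barcodes, against 3197 and 636 CPM in the remaining barcodes, and so varied with the cardiomyocyte transcripts of each library (log2 0.09 ± 0.19, adjusted p = 0.79).

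Cell cycle transcripts were rare in capillary barcodes. Mki67, a marker of dividing cells, had 14.1 and 6.92 CPM in capillary barcodes, against 14.8 and 17 CPM in the remaining barcodes, and was found in 0.550% and 0.632% of thinned capillary barcodes (0.821% and 0.815% before thinning). Thinned remaining barcodes with no pan-endothelial UMI held it in 0.890% and 1.08%. Of 15 cell cycle genes tested against the remaining barcodes, 0 were higher and 1 lower (median log2 -0.57). The shares of all genes were 11.6% and 10.9% there. Against endocardial barcodes 0 of 9 were higher and 1 lower (median -0.60), beside 7.76% and 7.87%. Against lymphatic barcodes 0 of 9 were higher and 6 lower (median -2.26), beside 7.24% and 6.44%. However, the difference of Mki67 from lymphatic barcodes was -1.94 ± 0.49 over both libraries and 0.97 in library 1 alone. In the capillary barcodes with 0 UMIs of 10 genes of other cell types, 2 genes of the list were lower. Top2a, a topoisomerase of dividing cells, had 10.4 and 4.94 CPM in capillary barcodes, against 34.0 and 18.4 CPM in endocardial, 14.4 and 56.8 CPM in lymphatic and 19.1 and 21.2 CPM in the remaining barcodes (log2 -1.38 ± 0.33 against the last, adjusted p = 0.0106). With DESeq2 the Top2a difference from the remaining barcodes did not pass (adjusted p = 0.09), nor did that from endocardial barcodes (adjusted p = 0.0881), which the stricter selection put at -1.08 (adjusted p = 0.246). Immediate early genes, which rise within minutes of stress or handling, were higher in 5 of 11 against the remaining barcodes. They were higher in 1 of 10 against endocardial and in 0 of 10 against lymphatic barcodes. The shares of all genes higher in these comparisons were 11.6%, 7.76% and 7.24%. Against lymphatic barcodes 3 had an unadjusted p under 0.05 in edgeR and DESeq2 called 0. Dusp1, a phosphatase of this group, had 102 and 106 CPM against 74.2 and 67.4 CPM in the remaining barcodes (log2 0.75 ± 0.17, adjusted p = 0.00758), a call that DESeq2 did not make (adjusted p = 0.089). With DESeq2 1 of them was called against the remaining barcodes, and in the capillary barcodes with 0 UMIs of 10 genes of other cell types edgeR called 0. Their median log2 difference of 0.15 became -0.07 under scaling by library size.

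Set directly against endocardial barcodes, 546 of 11558 tested genes were at least 2-fold higher in capillary barcodes (4.72%) and 639 at least 2-fold lower (5.53%). Tbx3, a T-box transcription factor, had the largest positive difference, with 59.4 and 51.7 CPM in capillary barcodes against 5.99 and 2.87 CPM (log2 3.92 ± 0.34, adjusted p = 1.02e-06). Btnl9, of the butyrophilin family, had 199 and 202 CPM against 12 and 14.6 CPM (log2 3.80 ± 0.21). Kcna5, a voltage-gated potassium channel, had 63.8 and 45.8 CPM against 2 and 3.69 CPM (log2 3.73 ± 0.32), and Ly6c1, a surface antigen of small vessels and monocytes, had 289 and 219 CPM against 20.0 and 17 CPM (log2 3.66 ± 0.21). Each of these 4 genes had capillary libraries that lay well above both endocardial libraries. In the other direction, Nrg1 had 9.64 and 25.7 CPM in capillary barcodes against 1240 and 1662 CPM in endocardial barcodes (log2 -6.32 ± 0.25, adjusted p = 1.14e-09). Cdh11 had 6.68 and 48.8 CPM against 1005 and 1710 CPM (log2 -5.76 ± 0.35), and Col23a1 had 3.71 and 6.26 CPM against 186 and 308 CPM (log2 -5.63 ± 0.23).

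Against lymphatic barcodes, 578 of 11558 genes were at least 2-fold higher in capillary barcodes (5.0%) and 539 at least 2-fold lower (4.66%). Lhx6 had 88.3 and 96.2 CPM in capillary barcodes, against 14.4 and 6.31 CPM (log2 3.61 ± 0.34, adjusted p = 3.32e-06). Kirrel3, an adhesion protein of the immunoglobulin family, had 352 and 579 CPM against 32.4 and 61.5 CPM (log2 3.37 ± 0.20). Trpm3, a cation channel, had 213 and 381 CPM against 68.5 and 41.8 CPM (log2 2.77 ± 0.27). Among the lower genes, Reln had 8.16 and 5.93 CPM in capillary barcodes, against 429 and 1770 CPM (log2 -7.37 ± 0.40, adjusted p = 1.46e-08), and Tc2n had 5.19 and 4.94 CPM against 288 and 849 CPM (log2 -6.89 ± 0.34). The lymphatic libraries, of 55 and 218 barcodes, differed widely in these genes, and both capillary libraries lay below both of them.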

How the data were processed

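Gene by barcode UMI counts of 2 droplet libraries were used as deposited. The authors counted UMIs with Cell Ranger 6.0.0, as the matrix header records. Further names in the submitters' processing notes are fastp, Trimmomatic, Seurat and edgeR, and the builds GRCm38 and mm10, without roles. No label or header used here says whether introns or strand entered the counting. The table held 27999 features and 22183 barcodes, and library totals were 57982200 and 50199793 UMIs. Barcodes were tied to libraries by suffix. Intervals and floors of 3 counts cover counting error only.

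Members, gene lists and tests were chosen with earlier results of these data known. UMIs were summed per class and library, and CPM are these sums scaled by their totals. Sums were compared with edgeR 4.0.16 (quasi-likelihood F test, TMM scaling, filterByExpr, Benjamini-Hochberg adjustment over all genes tested, R 4.3.3). The remaining barcodes formed 1 fit of 4 sums with 1 residual degree of freedom. The endocardial and lymphatic classes shared a fit of 6 sums with 2. To these, edgeR added 9.41 and 12.4 prior degrees of freedom drawn from all genes, so the spread behind each p-value was mostly pooled. Library was a block, since barcodes of all classes in 1 library share a cell suspension, so the pairing comes from the design. SE is the log2 difference divided by the square root of F. The 17 genes of the selection rule were left out of all tests and counts. The steps were tested on simulated data.

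Genes were named by a rule: in each comparison the 12 largest higher and 8 largest lower genes with adjusted p under 0.05, at least 2-fold, the same sign in both libraries and at least 50 CPM in the higher class, without unnamed gene models, and from each list up to 4 largest calls and 3 others of highest level. The text gives a part of these, and Ackr1, Cd247, Cd3e, Emcn, Esm1, Fabp5, Hbb-bs, Lipe, Mfsd2a, Selp, Slc2a1, Slc2a3, Slc2a4 and Slc2a12 were named outside the rule after their values were seen. No doublet was removed: a simulated-neighbour score (scikit-learn 1.9.0) marked the top 8% of each library, left out as an alternative. Alternatives were DESeq2 1.42.0, library size scaling, no filter, no block, a stricter selection, Ttn and Ryr2 under 0.5%, other sets of remaining barcodes and leaving out a library. The stricter selection asked for at least 5 pan-endothelial UMIs in each endothelial class and 2 capillary UMIs in the capillary class. It allowed no UMI of the genes that the main rule limits to 1. Capillary barcodes that failed it joined the remaining ones, which numbered 4104 and 6220 in place of 3847 and 5812. Shares were computed after thinning to 1000 UMIs. Gene positions are from GENCODE on GRCm38. Exons of 122 of 407 placed genes overlap another gene, 104 on the opposite strand. Among named genes these include Dll4, Sox17, Bmp6, Lipe, Nrg1, Reln, Slc6a6, Nos3, Notch1, Eng, Piezo1, Tbx3, Trpm3, Tc2n, Ncoa3, Fn1 and Col4a1. Globin, H2 and Gbp genes have near copies, so their counts are uncertain.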

Additional observations from a re-analysis of the deposited data

How the results depend on the processing

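Without the replicate block, edgeR called 85 genes at least 2-fold higher and 0 lower against the remaining barcodes (2279 genes at an unadjusted p under 0.05), 176 and 177 against endocardial and 85 and 109 against lymphatic barcodes. DESeq2 called 328 genes higher against lymphatic barcodes. Without the block 166 of 336 differences of named genes lost their call, 3, 5 and 1 fatty acid uptake genes were called higher against the remaining, endocardial and lymphatic barcodes, and 1, 2 and 0 interferon genes were. No setting other than those below turned the direction of a called difference of a named gene. With barcodes of at least 3 pan-endothelial UMIs taken out of the remaining ones, the log2 differences were 0.61 for Plvap (adjusted p = 0.427), 0.50 for Vcam1 (adjusted p = 0.0809) and 2.91 for Vwf (adjusted p = 0.000968). Leaving out a library left 1 sum against 1 and no test. Then the difference of Piezo2 from endocardial barcodes ranged from -0.61 to 1.74, and that of Mki67 from lymphatic barcodes from -2.84 to 0.97. The stricter selection gave capillary shares of 7.90% and 8.44% of low-Ttn/Ryr2 barcodes, and the limit of 0.5% on Ttn and Ryr2 gave 18.1% in library 1. DESeq2 lost the call of 32 named differences, the stricter selection that of 25 and leaving out doublets that of 16. Class differences rest on 2 libraries, and lymphatic values of library 1 on 55 barcodes.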
